A study of Mus musculus with 6 samples.

Results

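Expression of 10 genes of smooth muscle cells, pericytes and contractile myofibroblasts was compared between hearts of WT and Crlf2-/- mice after myocardial infarction (MI). The genes were taken by name from the deposited table of gene expression, which lists 54532 genes. They were Acta2, Tagln, Myh11, Cnn1, Mylk, Smtn, Lmod1, Myocd, Pdgfrb and Rgs5, and all 10 were present and passed the filter on low values. The table holds 3 WT and 3 Crlf2-/- libraries of bulk RNA. Both groups are labelled C57BL/6, heart, day 7, and both had undergone ligation of the left anterior descending coronary artery, so neither group is an uninjured control. Crlf2 encodes the TSLP receptor chain, and the knockout was carried by every cell of the animal. The study's methods describe male adult mice for the wild type. The labels number the libraries 1 to 3 but do not say outright that each came from a separate mouse, so p-values measure the spread between these libraries.

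Smooth muscle cells of the vessel wall contract when myosin light chain kinase phosphorylates the light chain of smooth muscle myosin, which then pulls on alpha smooth muscle actin filaments. Pericytes wrap the capillaries and carry the PDGF beta receptor, through which endothelial PDGF recruits them. In the healing infarct, fibroblasts become myofibroblasts that also make alpha smooth muscle actin, whereas smooth muscle myosin heavy chain stays largely a product of smooth muscle cells. Serum response factor (SRF) switches on many contractile genes by binding a short DNA element, the CArG box, with myocardin as its partner.

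FPKM gives the fragments of a gene per length and per size of its library, and it was further scaled between libraries here by factors of 0.991 to 1.007. The libraries held 18508646 to 19682428 fragments on the genes of the table. Crlf2 measured 26.8, 24.9 and 21.6 scaled FPKM in WT and 13.2, 18.6 and 19.9 in Crlf2-/- libraries, with a log2 fold change of -0.52 that did not pass the test (limma adjusted p = 0.521). Its transcripts were thus still present in the knockout. The extraction text of the labels names the retina, but the retinal genes Sag, Gnat1 and Pde6a had at most 10 fragments in any library while 14 of 14 cardiomyocyte markers passed the filter. The summed level of the cardiomyocyte markers ranged from 1260 to 2341 FPKM in WT and from 841.4 to 1653 FPKM in Crlf2-/- libraries. Crlf2-/- replicate 2 stood apart in the summed level of 6 skeletal muscle markers, with 184.1 FPKM against 2.81 to 4.70 FPKM in the other 5 libraries. The paper states that infarcted and peri-infarcted tissue of the heart was taken for sequencing, so these are not levels of the whole heart. How much of each kind of tissue a library holds is not given. The RNA comes from all cells of that tissue, in which fewer cells of a type and less RNA per cell cannot be told apart.

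The upstream sequences of Acta2 and Lmod1 are shown because these were the 2 genes of the 10 whose WT and Crlf2-/- libraries did not overlap, Acta2 higher and Lmod1 lower in the knockout. Positions here and below are those of GRCm38. Each line gives the 250 bases before the RefSeq transcription start on the strand of the gene (GRCm38.p6), at chr19:34255374-34255623 on the minus strand for Acta2 and at chr1:135324563-135324812 on the plus strand for Lmod1. Capitals mark a CArG box with 1 mismatch in its A/T core and the sequence CATTCC, which is bound by TEAD factors, on either strand.
Acta2: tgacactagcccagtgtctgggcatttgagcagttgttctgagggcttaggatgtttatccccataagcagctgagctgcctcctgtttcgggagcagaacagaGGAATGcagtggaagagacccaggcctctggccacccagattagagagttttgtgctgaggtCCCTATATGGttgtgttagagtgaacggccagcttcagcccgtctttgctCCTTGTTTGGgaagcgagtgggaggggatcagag
Lmod1: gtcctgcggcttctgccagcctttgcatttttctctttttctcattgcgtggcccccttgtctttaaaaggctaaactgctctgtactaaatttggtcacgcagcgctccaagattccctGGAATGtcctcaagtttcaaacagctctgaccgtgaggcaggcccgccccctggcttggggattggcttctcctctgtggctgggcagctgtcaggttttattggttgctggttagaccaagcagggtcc

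The Acta2 window held 2 CArG boxes with 1 core mismatch, CCCTATATGG from 84 to 75 bases and CCTTGTTTGG from 34 to 25 bases before the start. It also held CATTCC on the opposite strand, 146 to 141 bases before the start. The Lmod1 window held CATTCC on the opposite strand 130 to 125 bases before the start, and no CArG box of either kind. RefSeq upstream sequences were matched for 6 of the 10 genes, namely Acta2, Lmod1, Cnn1, Mylk, Smtn and Rgs5. In the other 4 windows of this kind, Mylk and Smtn each held CATTCC once, and Cnn1 and Rgs5 held none of the motifs searched. The Mylk window (chr16:34784700-34784949) and the Smtn window (chr11:3539293-3539542) lie inside the spans of these genes given below. They thus precede RefSeq starts within the genes and not the outermost starts. No window of the 6 held an exact CArG box or TATAAA. Over all 32851 upstream sequences of the same length, 1.47% held an exact CArG box, 7.25% a CArG box with 1 core mismatch, 12.4% TATAAA and 12.6% CATTCC.

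Levels, which compare between genes because FPKM is per length, spanned a wide range. Acta2 was the 40th of 15520 tested genes by mean level and lay above Rgs5 by 4.87 times. Its length was 1781 bases in the deposited data against 2196 exon bases in GENCODE M21. The level of Acta2 beside other genes therefore depends on the gene model, and this was not tested. The order then ran Rgs5, Pdgfrb, Cnn1, Smtn, Mylk, Myh11, Lmod1, Tagln and Myocd. Each gene lay above the next in 6 of 6 libraries, except that Cnn1 lay above Smtn in 4 and Lmod1 above Tagln in 5. Acta2 alone made up 62.7% to 72.2% of the summed FPKM of the 10 genes in WT and 72.7% to 77.2% in Crlf2-/- libraries.

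**Figure D1:**
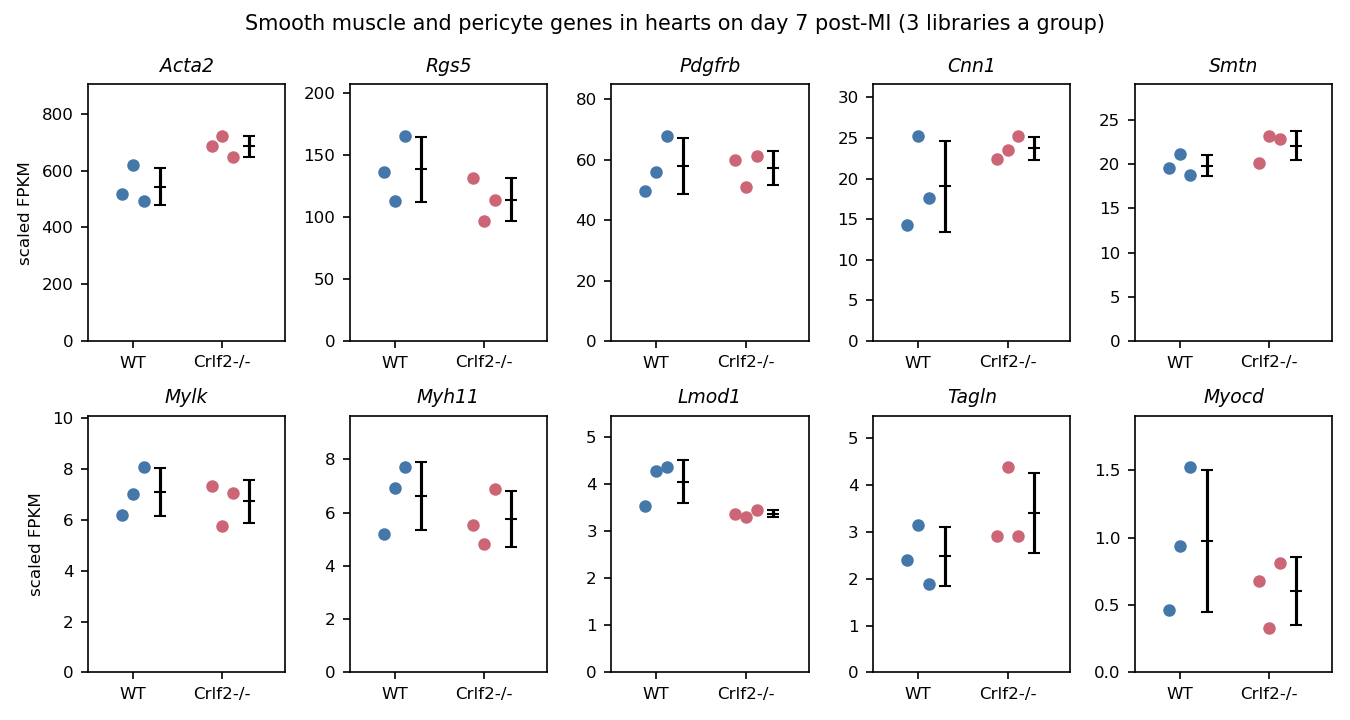
Scaled FPKM of each of the 10 genes, with its own vertical axis from 0, in the 3 WT (blue) and 3 Crlf2-/- (red) libraries. Points are libraries and the bars beside them are mean and SD. The groups were apart for Acta2 and Lmod1 and overlapped for the other 8 genes.

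Acta2 encodes alpha smooth muscle actin, the actin of smooth muscle and of myofibroblasts. The table places it at 34241090 to 34255336 of chromosome 19, minus strand, so that its start lies slightly downstream of the RefSeq start used above. It measured 519, 619 and 494 scaled FPKM in WT and 687, 723 and 648 in Crlf2-/- libraries. Every Crlf2-/- library lay above every WT library. The WT mean was 544 ± 65.9 FPKM (SD, n = 3). The Crlf2-/- mean was 686 ± 37.6 FPKM (SD, n = 3), and the values rest on 19278 to 30162 fragments a library. The log2 fold change was 0.34 with a 95% interval of 0.03 to 0.66, an estimated ratio of 1.27 (limma, unadjusted p = 0.0374, adjusted p = 0.711). It did not pass the threshold, and the exact permutation test gave p = 0.1 (two-sided), the smallest that 3 against 3 allow.

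The other thin-filament genes showed no difference that passed the test. Cnn1 (chromosome 9, 22099216 to 22109630, plus strand) encodes the actin-binding protein calponin of differentiated smooth muscle. It measured 14.3, 25.3 and 17.6 FPKM in WT and 22.4, 23.6 and 25.2 FPKM in Crlf2-/- libraries. WT replicate 2 was as high as the highest knockout library, and the coefficient of variation was 29.7% in WT against 5.97% in Crlf2-/-. Its log2 fold change was 0.36 (interval -0.09 to 0.80, limma adjusted p = 0.852), and it was 0.17 without WT replicate 1 and 0.58 without WT replicate 2. Tagln, which encodes the actin-binding protein transgelin (SM22 alpha), measured 2.398, 3.15 and 1.88 FPKM in WT and 2.92, 4.38 and 2.91 FPKM in Crlf2-/- libraries. Its groups overlapped through WT replicate 2, and its log2 fold change was 0.45 (interval -0.07 to 0.97, limma adjusted p = 0.827). It was 0.26 without Crlf2-/- replicate 2, the library with high skeletal muscle markers, and 0.27 without WT replicate 3.

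Smtn (chromosome 11, 3517523 to 3540612, minus strand) encodes smoothelin, which binds actin in contractile smooth muscle. It measured 19.5, 21.1 and 18.8 FPKM in WT and 20.2, 23.2 and 22.8 FPKM in Crlf2-/- libraries, with a log2 fold change of 0.15 (interval -0.09 to 0.39, limma adjusted p = 0.924). Lmod1 (chromosome 1, 135324807 to 135368065, plus strand) encodes leiomodin, which nucleates actin filaments in smooth muscle, and was the gene whose libraries were apart in the opposite direction to Acta2. It measured 3.53, 4.28 and 4.36 FPKM in WT and 3.37, 3.30 and 3.46 FPKM in Crlf2-/- libraries. The gap between WT replicate 1 and the knockout libraries was small beside the spread within WT. Its log2 fold change was -0.25 (interval -0.53 to 0.03, limma adjusted p = 0.818, exact permutation p = 0.1).

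On the motor side, Myh11 (chromosome 16, 14194535 to 14291372, minus strand) encodes the heavy chain of smooth muscle myosin. It measured 5.20, 6.93 and 7.70 FPKM in WT and 5.54, 4.83 and 6.90 FPKM in Crlf2-/- libraries. WT replicate 1 lay within the range of the knockout libraries, and the log2 fold change was -0.19 (interval -0.61 to 0.23, limma adjusted p = 0.969). It was -0.074 without WT replicate 3 and -0.073 without Crlf2-/- replicate 2, against -0.35 without WT replicate 1 and -0.32 without Crlf2-/- replicate 3. Mylk (chromosome 16, 34745210 to 35002420, plus strand) encodes myosin light chain kinase and measured 6.20, 7.01 and 8.06 FPKM in WT and 7.34, 5.77 and 7.06 FPKM in Crlf2-/- libraries. Its groups overlapped almost fully, with a log2 fold change of -0.08 (interval -0.40 to 0.25, limma adjusted p = 0.996). The sign of the Mylk value turned without WT replicate 3 (0.019) and without Crlf2-/- replicate 2 (0.032).

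Myocd (chromosome 11, 65176561 to 65269989, minus strand), the cofactor of SRF that drives the smooth muscle programme, was the lowest of the 10 genes. It measured 0.463, 0.940 and 1.52 FPKM in WT and 0.677, 0.326 and 0.810 FPKM in Crlf2-/- libraries, from 49 to 214 fragments. The 3 WT libraries alone differed by more than the groups did, with a coefficient of variation of 54.4%. Its log2 fold change of -0.55 had the widest interval of the 10 genes (-1.53 to 0.43, limma adjusted p = 0.942). It was -0.95 without WT replicate 1, -0.19 without WT replicate 3, -0.22 without Crlf2-/- replicate 2 and -0.28 with a pseudocount of 1, so its size depended on single libraries and on the pseudocount. Myocardin is also made by cardiomyocytes, whose markers were lower in Crlf2-/- libraries, with a list median of -0.72. Their part in the Myocd value was not tested.

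Among the pericyte genes, Pdgfrb encodes the receptor for PDGF-B. It measured 49.8, 55.8 and 67.9 FPKM in WT and 59.8, 50.9 and 61.2 FPKM in Crlf2-/- libraries. The knockout libraries lay wholly within the WT range, and the log2 fold change was -0.01 (interval -0.34 to 0.32, limma adjusted p = 0.998). Without WT replicate 3 it was 0.12 and without Crlf2-/- replicate 2 it was 0.08. Rgs5 (chromosome 1, 169655501 to 169695813, plus strand), a regulator of G protein signalling and a marker of pericytes, measured 136, 113 and 166 FPKM in WT and 132, 96.9 and 113 FPKM in Crlf2-/- libraries. Its groups overlapped, and the log2 fold change was -0.27 (interval -0.68 to 0.13, limma adjusted p = 0.903). It was -0.14 without WT replicate 3, -0.16 without Crlf2-/- replicate 2 and -0.41 without WT replicate 2.

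**Figure D2:**
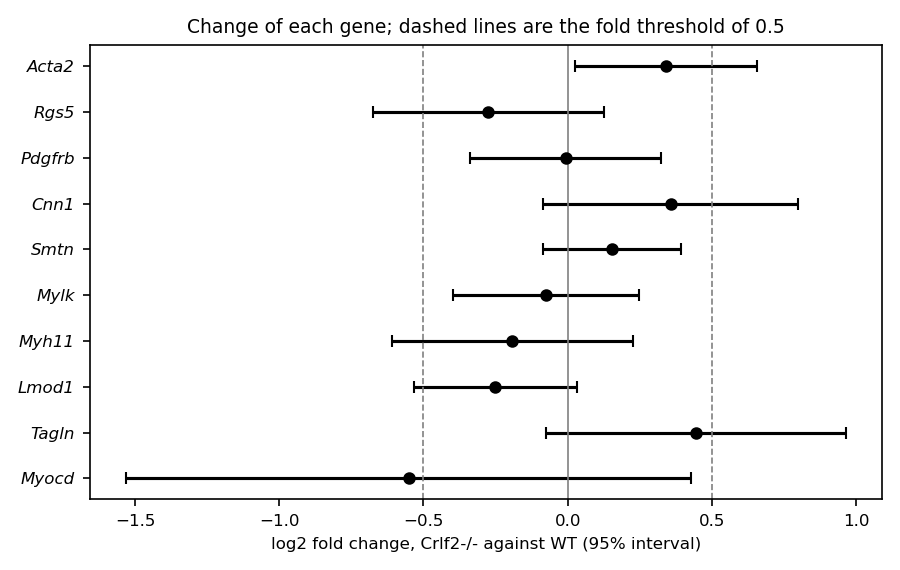
Log2 fold change of each gene in Crlf2-/- against WT hearts with its 95% interval from limma, genes ordered by level. Dashed lines mark the fold threshold of 0.5. The interval of Acta2 lies above 0 and reaches past 0.5, and the intervals of the other 9 genes include 0.

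Of the 10 genes, 0 passed the thresholds of adjusted p at most 0.05 and absolute log2 fold change at least 0.5, where 0.0129% of all tested genes did (limma, Benjamini-Hochberg adjustment). Acta2 was the 1 gene with an unadjusted p under 0.05, where 6.58% of all tested genes had such a p. Groups were apart and higher in Crlf2-/- for 1 gene where 5.37% of all genes were, and apart and lower for 1 gene where 6.37% were. With 10 genes, these counts are near the background. Higher values in Crlf2-/- were found for 4 genes and lower values for 6. The median log2 fold change of the 10 genes was -0.04 and that of all genes tested was -0.0042. The interval lay wholly between -0.5 and 0.5 for Smtn, Mylk and Pdgfrb, which is 3 of 10 where 47.7% of all genes had such an interval. For these 3 genes a change past the fold threshold lies outside the interval, whereas for the other 7 it does not. With 1 library left out at a time, the genes at an unadjusted p under 0.05 numbered 0 to 3. Without WT replicate 1 they were Lmod1 and Myocd, without WT replicate 2 Acta2, Cnn1 and Tagln, and without any of the other 4 libraries there were 0.

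Tagln stood low for a gene that smooth muscle makes in quantity, at rank 8891 of 15520 tested genes by level and with 82 to 204 fragments a library. In GENCODE M21 (GRCm38), Tagln spans 45929619 to 45936058 of chromosome 9, minus strand, the same position as in the table. Exons of other genes on the opposite strand cover 67.9% of its 1988 exon bases, 1241 bases by Gm48529 and 108 bases by the last exon of Pcsk7. Of the tested genes, 0.458% were covered to this extent or more. Of the 100-base stretches of Tagln transcripts, 48.3% also occur in transcripts of another gene on either strand. Gm48529 itself had 14, 17 and 24 fragments in WT and 24, 36 and 39 fragments in Crlf2-/- libraries. Fragments that lie on exons of more than 1 gene can be left uncounted. The strand and overlap settings of the counting are not given in the sources used here, so the Tagln level is uncertain, and the part of the overlap in it was not tested. Smaller shares were covered in Smtn (16.3%, by Gm11946 and Gm11947) and Mylk (6.85%, by E130310I04Rik and Gm21691), and none in the other 7 genes.

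**Figure D3:**
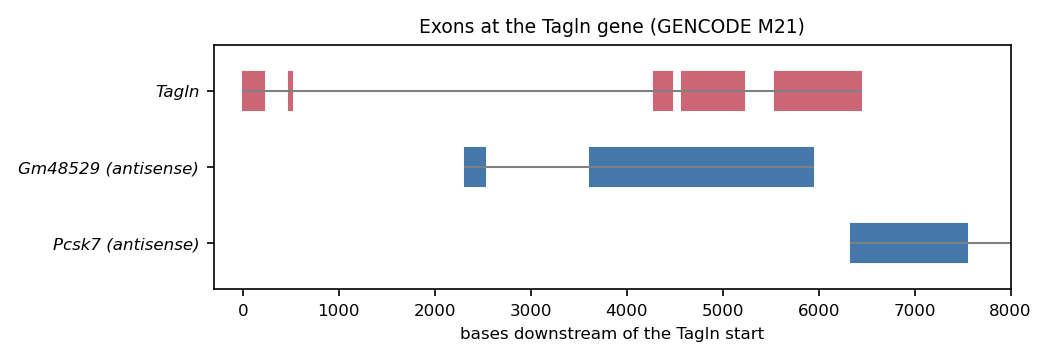
Exons (boxes) of Tagln and of the antisense genes Gm48529 and Pcsk7, in bases downstream of the Tagln start. Exons of Gm48529 and Pcsk7 cover 67.9% of the exon bases of Tagln, and 639 bases are free of them.

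Ratios within a library do not depend on how libraries were scaled. The ratio of Acta2 to Myh11 sets the actin shared by smooth muscle and myofibroblasts against smooth muscle myosin. It was 99.8, 89.3 and 64.2 in WT and 124, 149.6 and 93.9 in Crlf2-/- libraries. Only Crlf2-/- replicate 3 lay within the WT range, and the mean log2 ratio was higher by 0.54 in Crlf2-/- (exact permutation test, two-sided, p = 0.2, adjusted p = 0.2 over 3 ratios). The ratio of Myh11 to Pdgfrb was 0.104, 0.124 and 0.113 in WT and 0.0926, 0.0949 and 0.113 in Crlf2-/- libraries, with a log2 difference of -0.19 (exact permutation p = 0.2, adjusted p = 0.2). The ratio of Rgs5 to Pdgfrb was 2.74, 2.03 and 2.44 in WT and 2.20, 1.90 and 1.85 in Crlf2-/- libraries, with a log2 difference of -0.27 (exact permutation p = 0.2, adjusted p = 0.2). The groups overlapped in all 3 ratios. With 1 library left out, the log2 differences were as small as 0.35 for Acta2 to Myh11 (without WT replicate 3), -0.13 for Myh11 to Pdgfrb (without WT replicate 2) and -0.17 for Rgs5 to Pdgfrb (without WT replicate 1).

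Over the 6 libraries, the levels of the 10 genes did not move as a single block. Of 45 pairs, 25 had a positive and 20 a negative Pearson's r of log2(FPKM + 0.1), and 0 of 45 had an adjusted p of at most 0.05 while 10 had an unadjusted p under 0.05 by exact permutation. The highest r was between Myh11 and Myocd, at 0.96 (Spearman's rho 1, exact permutation p = 0.00139 for r and 0.00278 for rho, adjusted p = 0.0625 and 0.125), and it was 0.92 without the 2 libraries farthest in Myh11. Acta2 and Tagln had r = 0.90 (rho 0.83, exact permutation p = 0.00972 and 0.0583, adjusted p = 0.0833 and 0.263), which was 0.67 without 2 libraries. The lowest r was between Tagln and Rgs5, at -0.96 (rho -0.94, exact permutation p = 0.00417 and 0.0167, adjusted p = 0.0833 and 0.188), and it was -0.77 without 2 libraries. Acta2 and Myh11 had r = -0.45. All pairs rest on the same 6 libraries, between which the summed markers of other cells differed. The part of the tissue mix in these r values was not tested.

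Among 12129 other tested genes with a mean of at least 1 FPKM, those most like Acta2 over the 6 libraries were Chst14, Ano10, Surf2, Fads1 and Itga5, with r from 0.98 down to 0.96. Tagln was the 83rd in that order, Smtn the 283rd and Cnn1 the 301st. Those most like Myh11 included Ltbp4, Peg13, Kmt2b and Plcg1, each with r of at least 0.99. The genes most like Pdgfrb were Arid1a, Ptprg, Arhgef7, 4930578C19Rik and Gxylt2, also at 0.99 or above, and Mylk was the 198th.

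The wider smooth muscle contractile programme, 22 genes without the 10, had 0 genes past both thresholds, and 11 had higher and 11 lower values in Crlf2-/- hearts (median log2 fold change 0.02). At an unadjusted p under 0.05 there was Pdlim7, an adaptor of actin filaments, at 17.6, 18.8 and 15.6 FPKM in WT and 19.1, 24.0 and 22.9 FPKM in Crlf2-/- libraries (log2 fold change 0.34, limma adjusted p = 0.635). Its libraries were apart. The most abundant genes of the list were Des, the intermediate filament protein desmin, Tpm1, a tropomyosin, and Myl9, the regulatory light chain of smooth muscle myosin. Their log2 fold changes were -0.04, -0.24 and 0.05. Des and Tpm1 are also made by cardiomyocytes.

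The pericyte list of 18 genes also had 0 called genes, with 6 higher and 12 lower values and a median of -0.06. Its most abundant genes were Mcam, an adhesion molecule of vessel walls, Ndufa4l2 and Anpep, with log2 fold changes of 0.05, 0.09 and -0.01. Colec11, a collectin, had an unadjusted p of 0.0359 in limma, with 12.03, 12.7 and 12.99 FPKM in WT and 7.94, 8.01 and 12.5 FPKM in Crlf2-/- libraries (log2 fold change -0.44, adjusted p = 0.704). Crlf2-/- replicate 3 lay within the WT range. Among the PDGF ligands and the alpha receptor, Pdgfb, the ligand that endothelium gives to pericytes, measured 18.5, 16.6 and 18.4 FPKM in WT and 14.0, 17.7 and 16.5 FPKM in Crlf2-/- libraries. None of these 5 genes was called or had an unadjusted p under 0.05 (limma), 1 was higher and 4 were lower, and the median was -0.13, with Pdgfra at -0.17 and Pdgfa at -0.13.

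The SRF and myocardin axis held 15 genes, with SRF itself, its other cofactors, target genes and also regulators that oppose myocardin, such as Hey2. This list had 0 called genes, 9 higher and 6 lower values and a median of 0.02. These counts and the median thus pool genes of opposite action. Ctgf and Cyr61, secreted matrix proteins that SRF and YAP induce, and Fhl2, a LIM protein of striated muscle, were the most abundant. Cyr61 measured 98.5, 119 and 129 FPKM in WT and 121, 156 and 164 FPKM in Crlf2-/- libraries (log2 fold change 0.34, limma adjusted p = 0.807). Ctgf and Fhl2 had log2 fold changes of 0.02 and -0.37. Hey2, a Notch target that represses myocardin-driven transcription, was lower in every Crlf2-/- library, at 1.51, 1.36 and 1.89 FPKM in WT and 1.05, 0.939 and 1.21 FPKM in Crlf2-/- libraries (log2 fold change -0.53, limma unadjusted p = 0.0204, adjusted p = 0.598). The genes that control phosphorylation of the myosin light chain, 13 in number with RhoA, its kinases and calmodulin, had 0 called genes and a median of -0.01, with 6 higher and 7 lower values. The calmodulin genes Calm2 and Calm3 lay at -0.05 and 0.02.

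The myofibroblast list held 18 genes of matrix and activation, of which 0 were called, 14 were higher and 4 lower in Crlf2-/- hearts, with a median of 0.17. Col1a1, a chain of type I collagen, measured 1961, 2434 and 2372 FPKM in WT and 2593, 2754 and 2644 FPKM in Crlf2-/- libraries (log2 fold change 0.25, limma adjusted p = 0.871). Its libraries were apart. Of the 18 genes, 3 were apart and higher in Crlf2-/-, Col1a1 included, where 5.37% of all tested genes were. Apart and lower were 0 of the 18, where 6.37% of all tested genes were. Col3a1 and Col1a2 had log2 fold changes of 0.01 and 0.14. Tnc, the matrix protein tenascin C of healing wounds, measured 42.9, 77.5 and 52.5 FPKM in WT and 108, 77.6 and 75.5 FPKM in Crlf2-/- libraries (log2 fold change 0.62, limma unadjusted p = 0.0278, adjusted p = 0.652). WT replicate 2 lay above Crlf2-/- replicate 3.

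**Figure D4:**
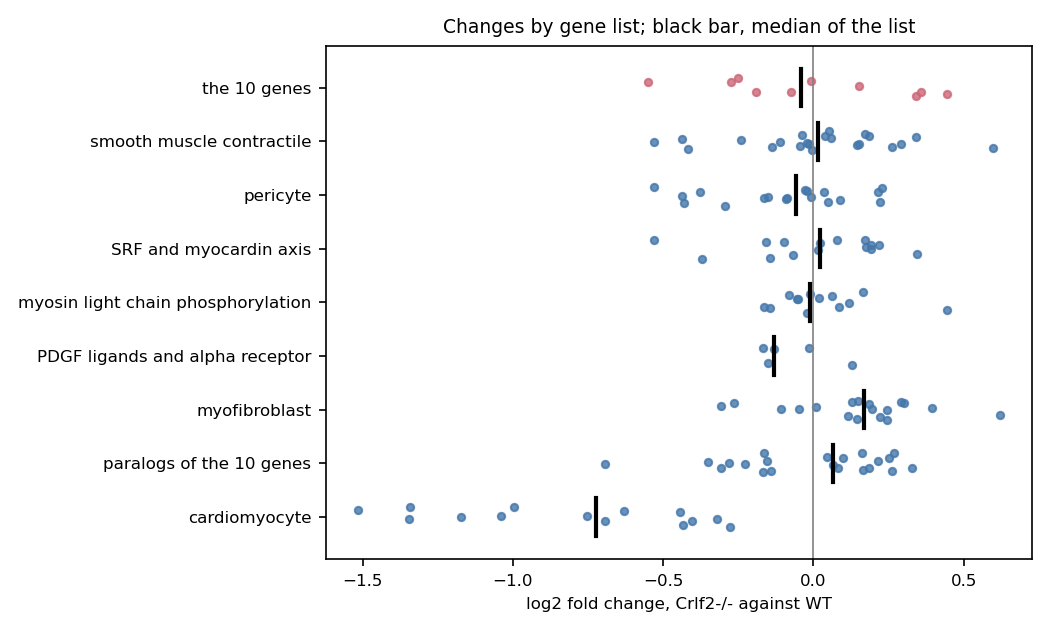
Log2 fold change in Crlf2-/- against WT hearts of each tested gene (points) by list, with the list's median as a black bar. The medians of the 10 genes and of the related lists lie between -0.13 and 0.17, and the 14 cardiomyocyte markers lie below 0 with a median of -0.72.

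Several paralogs of the 10 genes lay above their smooth muscle counterparts. Beside Acta2, the non-muscle actins Actb and Actg1 measured 658 to 798 and 381 to 520 FPKM over the 6 libraries, with log2 fold changes of 0.07 and 0.16. The cardiac actin Actc1 measured 690.1, 1386 and 1191 FPKM in WT and 619, 477 and 909.7 FPKM in Crlf2-/- libraries. The skeletal actin Acta1 measured 412 FPKM in Crlf2-/- replicate 2 and 15.7 to 87.1 FPKM elsewhere, in the library with the high skeletal muscle markers. No 100-base stretch of an Acta2 transcript in GENCODE M21 occurs unchanged in a transcript of another gene. Stretches that differ by single bases were not searched for, so whether reads of other actins add to Acta2 was not tested. Without Crlf2-/- replicate 2 the log2 fold change of Acta2 was 0.30 (limma unadjusted p = 0.104, adjusted p = 0.942).

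Tagln2, the paralog of Tagln in non-muscle cells, measured 120 to 170 FPKM against 1.88 to 4.38 FPKM for Tagln. The size of that gap is uncertain, because the Tagln level itself is uncertain through the exon overlap described above. Non-muscle myosin Myh9 measured 62.4 to 80.5 FPKM against 4.83 to 7.70 FPKM for Myh11. Cnn3, a calponin found outside smooth muscle, was higher in every Crlf2-/- library, at 85.5, 88.9 and 84.4 FPKM in WT and 110, 110 and 92.5 FPKM in Crlf2-/- libraries (log2 fold change 0.27, limma unadjusted p = 0.0485, adjusted p = 0.754). Of the 21 of 23 paralogs that passed the filter, 0 were called, 12 were higher and 9 lower.

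Markers of other cells also differed in level between the groups, and their part in the results was not tested. All 14 cardiomyocyte markers and all 5 red blood cell markers were lower in Crlf2-/- hearts, with medians of -0.72 and -1.29, and 0 of them were called. Of all tested genes, 49.1% were higher in Crlf2-/-, which is the background for the directions given here. The red blood cell markers summed to 225.6 to 366.3 FPKM in WT and to 85.3 to 160.8 FPKM in Crlf2-/- libraries. All 5 were apart and lower, where 6.37% of all tested genes were. Of 10 fibroblast markers 9 were lower, with a median of -0.24 and sums of 1573 to 1731 FPKM in WT and 1389 to 1539 FPKM in Crlf2-/- libraries, while the myofibroblast genes were mostly higher. Of 11 endothelial markers 9 were lower (median -0.15, 198.3 to 219.4 FPKM in WT and 180.2 to 188.9 FPKM in Crlf2-/-). Of 10 macrophage markers 9 were higher (median 0.09), with sums of 2348 to 4240 FPKM in WT and 2795 to 3462 FPKM in Crlf2-/- libraries. The 5 mesothelial markers had a median of 0.39 and summed to 8.29 to 17.7 FPKM in WT. Their sum was 30.2 FPKM in Crlf2-/- replicate 1, and 11.5 and 13.1 FPKM, within the WT range, in the other Crlf2-/- libraries. Of 8 proliferation markers 7 were higher (median 0.10), at sums of 42.1 to 60.4 and 50.5 to 57.2 FPKM. Of 5 atrial markers 2 passed the filter, Nppa at -0.57 and Myl4 at 1.30, and the Myl4 value rests on Crlf2-/- replicate 2, with 6.94 FPKM there and 0.449 to 0.681 FPKM elsewhere. Sln was listed at 0 in 4 libraries, at 4.96 FPKM (153 fragments) in Crlf2-/- replicate 2 and at 0.068 FPKM in Crlf2-/- replicate 3. The summed level of the 10 genes themselves ranged from 756.6 to 856.6 FPKM in WT and from 891.8 to 940.6 FPKM in Crlf2-/- libraries, of which Acta2 was most.

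At an unadjusted p under 0.05 in limma, all 5 red blood cell markers (Hbb-bs, Hba-a1, Hbb-bt, Hba-a2 and Alas2), 5 cardiomyocyte markers (Myl2, Myl3, Tnni3, Mb and Pln), 3 fibroblast markers (Tcf21, Gsn and Pi16) and the endothelial receptor Tek were lower in Crlf2-/- hearts, and the macrophage Fc receptor Fcgr1 was higher. Of all tested genes 6.58% had such a p, and the 1 of 11 endothelial and 1 of 10 macrophage markers are near that share. The most abundant markers were Actc1, Mb and Mybpc3 for cardiomyocytes, Lum, Dcn and Serping1 for fibroblasts, Cdh5, Pecam1 and Esam for endothelium and Lyz2, C1qb and C1qa for macrophages. For the lesser lists they were Msln, Upk3b and Upk1b for mesothelium, Top2a, Mki67 and Ccna2 for proliferation, and Tnnt3, Tnni2 and Myh1 for skeletal muscle, of whose 6 markers 3 passed the filter.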

How the data were processed

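RNA of infarcted and peri-infarcted heart tissue (day 7) was analysed, in 3 WT and 3 Crlf2-/- libraries. After trimming, the authors aligned reads with Hisat2 (2.0.5 in the submitters' processing notes), counted them with featureCounts and deposited FPKM per gene. Those notes list the builds mm10 and hg38 with no role. Table positions equal GENCODE M21 (GRCm38) for 53585 of 54532 genes. The counts behind the FPKM were not read directly, but FPKM times gene length gave whole fragments for 100% of nonzero values (tolerance 0.01). Counting error is therefore small for Acta2 and larger for Myocd and Tagln.

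Trimmed means of M values, from the fragments, set the scaling of FPKM, which were tested as log2(FPKM + 0.1) with limma 3.58.1 in R 4.3.3 (trend and robust, Benjamini-Hochberg adjustment). Fold changes on this scale understate the change of low genes. Genes needed 10 fragments in 3 libraries and 15 in all, which left 15520. Calls used the study's thresholds, an adjusted p of 0.05 and a log2 fold change of 0.5, but not the study's test. With its own test, the paper reported many more genes past these thresholds than the 2 of 15520 called here. The calls given here therefore hold for limma on scaled FPKM, and the paper's test was not rerun. The code was tested on simulated data. Python 3.11.15, numpy 2.4.6, pandas 2.3.3, scipy 1.17.1 and matplotlib 3.10.9 served for the rest. The table held 0 columns of other samples.

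The 10 genes and all lists (smooth muscle, pericyte, SRF and myocardin, light chain phosphorylation, PDGF, myofibroblast, paralogs and markers of other cells) were chosen with earlier results of these data known. Named were the 10 genes, Crlf2, listed genes called or at an unadjusted p under 0.05, the 3 most abundant of each list, paralogs set beside a gene, and the 5 genes most like Acta2, Myh11 and Pdgfrb. Items that this rule names but that are withheld for evaluation are not reported here. Retinal genes were chosen once the labels had been read.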

Additional observations from a re-analysis of the deposited data

How the results depend on the processing

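Of the 10 genes, 0 were called under any of 16 alternatives (another scaling, no scaling, other genes behind the scaling, 2 other filters, pseudocounts of 1 and 0.01, voom on the fragments, limma without trend and robust, the replicate block, and each library left out). Across all genes 2 were called, against 6 with no filter on low genes, 1 with at least 10 fragments in every library and 4 with the replicate block. With libraries left out in turn, 1 to 14 genes were called (5 without WT replicate 3 and 14 without Crlf2-/- replicate 1). Of the 10 genes, 1 had an unadjusted p under 0.05, against 2 with the replicate block (Acta2 and Tagln) and 0 to 3 with libraries left out. The median of the 10 genes was -0.14 when WT replicate 1 was left out and 0.07 when WT replicate 3 was left out, its lowest and highest values. With libraries left out, Mylk ranged from -0.17 to 0.032 and Pdgfrb from -0.11 to 0.115, and both turned sign without WT replicate 3 (0.019 for Mylk) and without Crlf2-/- replicate 2 (0.079 for Pdgfrb). The 3 ratios kept their direction with a pseudocount of 0.1 and with each library left out, the only alternatives run for them. Same-numbered libraries correlated in their deviations from the group means at -0.02, 0.12 and 0.12. Libraries of unlike number correlated at -0.30 to 0.22. The main fit treated the numbers as names without pairing. The replicate block called 0 genes of the related lists, of which 8 had an unadjusted p under 0.05 in limma against 4 without the block. With 3 libraries a group, the exact test cannot go below p = 0.1.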
